A study of Mus musculus with 2 samples.

Results

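The 45 genes described here encode the machinery that copies chromosomal DNA and the enzymes that supply its precursors. They were taken by symbol from a fixed list, matched through Ensembl identifiers, and all 45 were found among the 43346 Ensembl genes in the tables. They comprise the origin recognition complex (6 genes), the licensing factors (3), the MCM helicase (6), factors that activate the helicase (6), the sliding clamp and its loader (6), polymerase alpha with primase (4), polymerases delta and epsilon (4), RPA with the enzymes of Okazaki fragment processing (5) and nucleotide supply (5). The samples were whole spleens of 2 newborn B6NCrl mice from the same pregnancy, 0 days after birth, untreated as far as the labels say, with sex not recorded. Each pup gave 1 total RNA library, and both belong to 1 group (n = 2), in which replicate 1 is pup 2 and replicate 2 is pup 1. With 1 group there is no contrast between conditions and no test, and the labels give both samples the same donor identifier while naming separate pups, so they were treated as separate animals. On that reading the SDs given measure the spread between 2 littermates.

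A cell copies its genome once per division. In G1 the origin recognition complex, Cdc6 and Cdt1 load rings of Mcm2 to Mcm7 onto DNA, and in S phase Cdc45 and the GINS complex join the rings to form the working helicase, behind which polymerases, the clamp Pcna and the flap nuclease and ligase build both strands. Ribonucleotide reductase, thymidylate synthase and thymidine kinase keep deoxynucleotides available, and transcription factors of the E2F family are known to drive many of these genes as cells enter S phase. The newborn mouse spleen is a site of blood formation, with dividing erythroid and myeloid precursors.

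The libraries held 33121414 and 32161687 counts on Ensembl genes in replicates 1 and 2, which put between 669 and 38804 counts on each of the 45 genes in each library. Spleen stromal regulators were present, with Tlx1 at 15.5 and 24.1 TPM and Nkx2-5 at 15.0 and 20.5 TPM in replicates 1 and 2. TPM is a transcript level corrected for length and library total, and all levels below are TPM unless another scale is named. The adult globin genes held 27.8% and 25.7% of TPM, which lowers the TPM of every other gene in proportion. In whole tissue, fewer cells of a type and less RNA per cell cannot be told apart.

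DNA words that E2F factors are known to bind were looked for in the promoter entries, since the promoters of S phase genes are known for them. RefSeq promoters (build GRCm38.p6, 250 bases before to 50 bases after each start) were in the table for 37 of the 45 genes. Gmnn, Mcm4, Gins1, Gins2, Gins4, Rfc2, Prim2 and Pole had no entry in it. The E2F words searched were TTTCCCGC, TTTCGCGC, TTTGCCGC and TTTGGCGC on both strands, which can overlap each other. The stretches below show all the words that lie before the RefSeq start for the 9 genes that have one there. They read 5′ to 3′ on the gene's strand, with the words in capitals. The stretches of Orc1, Orc3, Mcm7, Gins3 and Rfc3 are cut shorter because they touch exons of the GENCODE M21 annotation. Those of Orc3 belong to Rars2 on the other side of the start, and those of Mcm7 to Mcm7 itself and to Ap4m1. In Mcm7, Gins3 and Rfc3 the stretch lies downstream of the start of the gene's leading GENCODE transcript. For these genes the words are before the RefSeq start only.
Orc1, chr4:108579417-108579444, plus strand: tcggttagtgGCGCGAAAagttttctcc
Orc3, chr4:34614966-34614993, minus strand: catgcctcccTTTCCCGCacgccccgcc
Cdc6, chr11:98907993-98908040, plus strand: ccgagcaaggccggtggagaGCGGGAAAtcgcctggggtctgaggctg
Mcm5, chr8:75109336-75109387, plus strand: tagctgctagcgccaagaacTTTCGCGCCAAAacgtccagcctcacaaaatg
Mcm6, chr1:128359725-128359835, minus strand: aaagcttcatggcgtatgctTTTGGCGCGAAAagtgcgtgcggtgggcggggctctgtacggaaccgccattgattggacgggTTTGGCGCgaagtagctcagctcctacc
Mcm7, chr5:138172031-138172058, minus strand: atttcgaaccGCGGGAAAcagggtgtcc
Gins3, chr8:95633508-95633535, plus strand: cgagtgcggcGCGGGAAAgcgagtttga
Rfc3, chr5:151651209-151651228, minus strand: cgtcgcacgcTTTCGCGCtc
Pola1, chrX:93632266-93632313, minus strand: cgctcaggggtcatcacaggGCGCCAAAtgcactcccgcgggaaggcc

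In Mcm6 and in Mcm5 a pair of words overlaps, so that the capitals read as 1 longer run. Mcm6 holds 3 words before its start, at 110, 106 and 47 bases before it, and Mcm5 holds 2, at 153 and 149. In Mcm7, Cdc6 and Pola1 the first base of the word lies 165, 138 and 138 bases before the start, and in Gins3, Orc3, Orc1 and Rfc3 it lies 41, 41, 27 and 10 bases before it. Mcm3, Cdt1, Lig1, Pold1 and Pole2 hold E2F words only after the start. In all, 14 of 37 genes (37.8%) hold such a word in the entry, against 704 of 27025 genes (2.60%) in the whole table and 465 of 9751 genes (4.77%) that reached 1 TPM in both libraries. The median GC content of the entries was 60.0% for the 45 genes' entries, 52.7% for the table and 60.7% for the expressed genes. A match is a description of letters and not a bound site.

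The CCAAT word, read by the factor NF-Y, and the CHR word TTTGAA, known from promoters of mitotic genes, were searched in the same way. CCAAT on either strand was in 23 of 37 genes (62.2%), against 41.1% in the table and 42.9% of the expressed genes. CHR was in 5 of 37 (13.5%), against 20.2% and 14.5%. The genes with the highest levels, Rrm2 and Pcna, have no E2F word in the entry but have CCAAT, which is in capitals in these stretches. That of Pcna touches its own exon in GENCODE M21 and lies downstream of the start of its leading transcript there.
Rrm2, chr12:24708184-24708228, plus strand: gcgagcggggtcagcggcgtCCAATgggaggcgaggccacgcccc
Pcna, chr2:132253253-132253277, minus strand: cacgggtacgATTGGtccttgagga

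All 45 genes were expressed, and most of them strongly. Each reached 1 TPM in both libraries, as did 31.0% of all Ensembl genes. A level of 10 TPM in both was reached by 44 of them, against 15.9% of all genes, and 100 TPM by 16, against 2.57%. Their median level was 74.6 TPM in replicate 1 and 64.8 in replicate 2, or 69.7 ± 6.93 (SD, n = 2), while the median of the 11932 protein-coding genes detected in both libraries was 13.1. All but Gins3 stood above that median. Together the 45 genes held 0.504% of TPM in replicate 1 and 0.426% in replicate 2.

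The levels span a 50.1-fold range, from Rrm2 down to Gins3. Set against the spread between the libraries, the order by TPM is resolved at its ends more than in its middle. Of the 44 pairs of neighbours in the order of mean TPM, 30 overlapped in their ranges over the libraries and were not separated by that spread. Both genes of a pair share the libraries, so such an overlap does not by itself mean a changed order. Compared within each library, 27 of the 44 pairs had the same order in both. The first 3 steps, from Rrm2 to Pcna, from Pcna to Tk1 and from Tk1 to Tyms, were all separated, as were the last 2, from Pole to Pola1 and from Pola1 to Gins3. The order at both ends depends on the length correction, except for Rrm2 and Pcna in first and second place. By reads per kilobase of the longest transcript, described below, Tk1 was at rank 12, Tyms at rank 22 and Pole lowest. Summed by role, nucleotide supply held 27.5% of the 45 genes' TPM. Its sum of 1277 ± 190 TPM was followed by 807 ± 80.8 for the MCM helicase and 797 ± 97.7 for the clamp and its loader, and RPA with Okazaki fragment processing summed to 711 TPM in replicate 1 and 584 in replicate 2. The licensing factors (264 ± 37.3), the origin recognition complex (263 ± 8.25), helicase activation (247 ± 18.3), polymerase alpha-primase (177 ± 15.9) and polymerases delta and epsilon (170 ± 8.27) had lower sums. The sums of the MCM helicase and the clamp group differed by less than their spread.

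**Figure D1:**
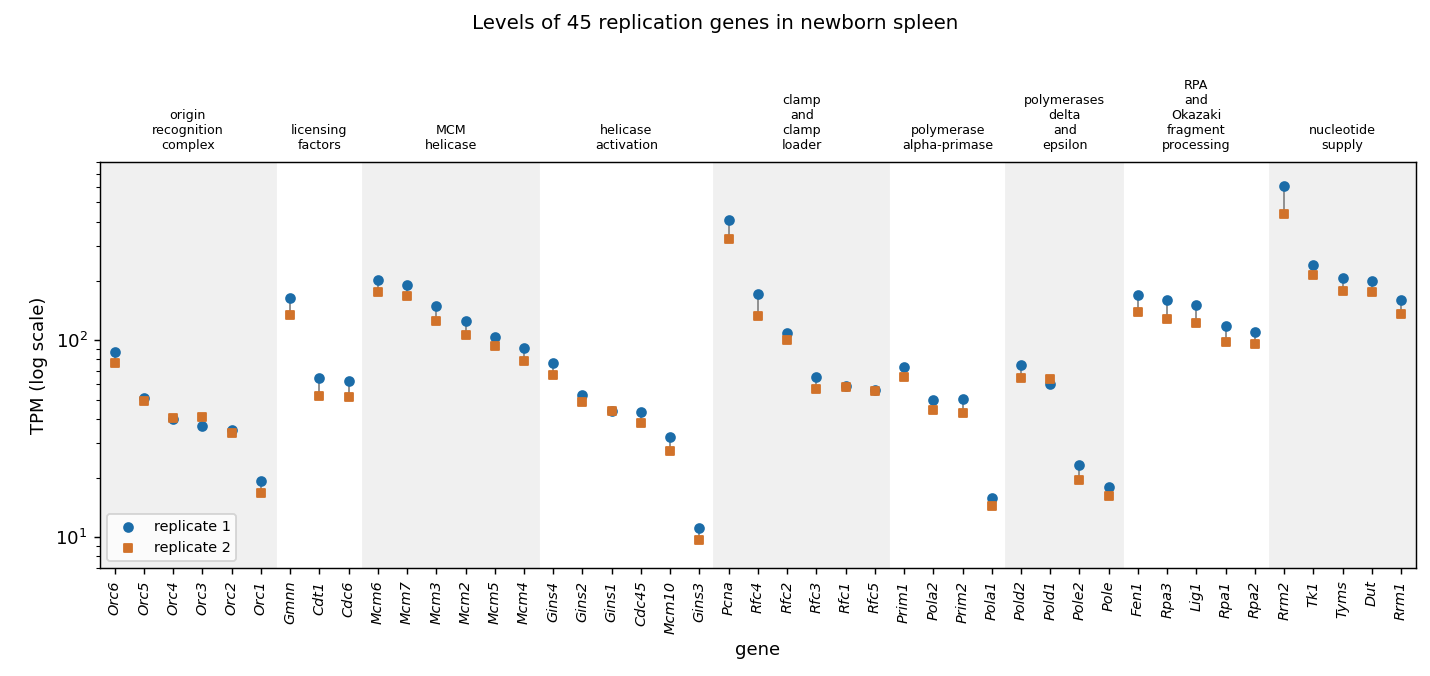
TPM on a log axis for each of the 45 genes, grouped by role, with a circle for replicate 1, a square for replicate 2 and a line joining them. Nucleotide supply and the clamp Pcna reach the highest levels, Rrm2 at 605 and 439 TPM, while Gins3, Pola1, Pole and Orc1 lie lowest, all under 20 TPM.

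Differences between the pups are given as a fold of replicate 1 over replicate 2, from estimated counts scaled by TMM, which sets the bulk of genes to no change. Folds have no replicate behind each pup, so none was tested. Replicate 1 was higher for all 45 genes on that scale, as it was for 48.9% of the 15506 genes tested. At least 1.2-fold higher were 34 of the 45, against 13.0% of the genes tested. None of the 45 was at least 1.2-fold higher in replicate 2, where 20.1% of genes were. At 1.5-fold only Rrm2 passed, against a background of 2.54% for replicate 1 and 4.57% for replicate 2. The median log2 ratio was 0.33 for the 45 genes and -0.01 for all genes tested. Their log2 ratios had an interquartile range of 0.115, against 0.370 for all genes tested. The 2 sets differ in depth, since the tested genes go down to a mean count of 20, where counting error is larger. The least counted of the 45 averaged 739.5, and no range for genes counted as deeply is given. Among the 7195 genes counted at least as deeply as the least counted of the 45, 11.9% were 1.2-fold higher in replicate 1 and 8.39% in replicate 2.

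These counts move with the scaling. By the ratio of deposited TPM the median of all genes tested was -0.14 and that of the 45 genes 0.19. The distance between the medians, 0.34 by TMM, was thus 0.34 by TPM as well. A factor applied to a whole library shifts both medians about alike, so an unchanged distance says little of stability. By TPM 42 of the 45 were higher in replicate 1, and Orc3, Orc4 and Pold1 were higher in replicate 2, and 10 were at least 1.2-fold higher in replicate 1, where 6.53% of all genes were. By library size alone 41 were higher in replicate 1, with Orc3, Orc4, Pold1 and Gins2 higher in replicate 2. No share over all genes is given for the direction by TPM or by library size. Counting error is small beside these ratios, since the 95% interval of the count ratio (exact Clopper-Pearson, counting error only) lay above 1 for 42 genes. The TPM intervals deposited by the authors did not overlap between the libraries for 33 genes, of which Orc3 was higher in replicate 2 and the others in replicate 1. Neither count is set beside a share over all genes, so neither sets the 45 genes apart from others counted as deeply.

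The origin recognition complex marks where replication can start and recruits the loader. Its largest subunit gene Orc1 was the lowest of the 6 by TPM, with 19.4 in replicate 1 and 16.8 in replicate 2. Orc6, which encodes the smallest subunit, was highest at 87.1 and 76.5 TPM. Between them lay Orc2 at 35.2 and 33.8, Orc3 at 36.9 and 40.8, Orc4 at 39.7 and 40.3 and Orc5 at 50.8 and 49.0. By TPM the subunits of this complex thus differed 4.53 ± 0.0424-fold between the highest and the lowest. Orc1 stood at 0.523 ± 0.0382 times Orc2, and Orc6 at 2.37 ± 0.151 times Orc2. Protein-coding transcripts held only 18.95 and 16.65 TPM in Orc4, and 16.27 and 14.88 in Orc1. By reads per kilobase of the longest transcript, a scale described below, Orc4 (11.4 and 11.8) was below Orc1 (15.5 and 13.6). By TMM-scaled counts Orc6 was 1.25-fold, Orc1 1.22-fold and Orc2 1.21-fold higher in replicate 1. Orc3, Orc4 and Orc5, at 1.01-, 1.03- and 1.13-fold, did not reach 1.2-fold.

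The licensing factors showed the inhibitor above its target. Cdt1, which brings the MCM ring to the origin, was at 64.4 TPM in replicate 1 and 51.9 in replicate 2. Gmnn encodes geminin, which binds Cdt1 and blocks reloading after S phase has begun, and it was at 164 and 134 TPM. The ratio of Cdt1 to Gmnn was 0.392 in replicate 1 and 0.387 in replicate 2, although both genes differed between the pups. Cdc6, the ATPase that works with Cdt1, was at 61.9 and 51.5 TPM, 0.976 ± 0.0220 times Cdt1. All 3 were higher in replicate 1, Cdt1 by 1.37-fold, Gmnn by 1.35-fold and Cdc6 by 1.33-fold.

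The 6 genes of the MCM ring, whose proteins sit in the helicase in equal number, differed less among themselves than the origin recognition genes. The highest, Mcm6, was at 202 TPM in replicate 1 and 176 in replicate 2, and the lowest, Mcm4, at 91.8 and 78.2, a ratio of 2.23 ± 0.0409. Mcm7 was at 191 and 168 TPM, Mcm3 at 150 and 126, Mcm2 at 125 and 107 and Mcm5 at 104 and 93.9. Both libraries gave these 6 genes the same order by TPM, which depends on the length correction. By reads per kilobase of the longest transcript, a scale described below, Mcm7 (150 and 130) was above Mcm6 (125 and 106). On that scale Mcm3 (83.8 and 70.3) was about level with Mcm4 (84.9 and 70.3). Protein-coding transcripts held 90.8 and 79.1 TPM in Mcm3, also near Mcm4. All 6 were at least 1.2-fold higher in replicate 1, with Mcm4 and Mcm2 at 1.29-fold, Mcm3 at 1.28-fold, Mcm6 at 1.26-fold, Mcm7 at 1.24-fold and Mcm5 at 1.23-fold. Mcm8 and Mcm9, relatives that act in recombination repair and are not part of the ring, were far lower, with Mcm2 at 15.4 ± 2.42 times Mcm8 and 47.3 ± 12.1 times Mcm9.

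The genes that turn the loaded ring into a moving helicase were lower than the ring itself. Cdc45, a part of the active helicase, was at 43.4 TPM in replicate 1 and 37.9 in replicate 2, and Mcm10, needed for its activation, at 32.4 and 27.4. The GINS complex holds its 4 subunits in equal number, yet Gins4 was at 76.4 and 66.8 TPM and Gins3 at 11.1 and 9.73. Gins1 was at 43.9 and 43.8 TPM and Gins2 at 52.9 and 48.5. Gins2 was 4.88 ± 0.161 times Gins3 on that scale, a ratio that depends on the length correction described below. Mcm10 was 1.32-fold, Cdc45 1.28-fold, and Gins3 and Gins4 1.26-fold higher in replicate 1, while Gins1 (1.11-fold) and Gins2 (1.06-fold) fell short of 1.2-fold.

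Pcna, the ring-shaped clamp that tethers polymerases to DNA, lies at chromosome 2, 132249162 to 132253314, on the minus strand of mm10. Its level, the second of the 45, was 408 TPM in replicate 1 and 325 in replicate 2. The 5 genes of the clamp loader replication factor C were lower, led by Rfc4 at 171 and 132 TPM and Rfc2 at 108 and 100.3. Rfc3 was at 64.9 and 56.8 TPM, Rfc1, the large subunit, at 58.6 and 58.2, and Rfc5 at 55.9 and 55.1. Rfc4 was 1.44-fold higher in replicate 1, which is second to Rrm2 among the 45, and Pcna was 1.39-fold and Rfc3 1.24-fold higher. Rfc2, Rfc5 and Rfc1, at 1.19-, 1.16- and 1.12-fold, did not reach 1.2-fold, so the loader subunits did not share 1 ratio. A processed pseudogene, Pcna-ps2, carried 5.76 and 4.17 TPM, and Pcna-ps1 was listed at 0. Reads can be divided between such copies and the gene.

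Polymerase alpha with primase lays down the RNA-DNA primers. The catalytic polymerase gene Pola1 (chromosome X) was at 15.7 TPM in replicate 1 and 14.4 in replicate 2, and its accessory subunit gene Pola2 at 49.6 and 44.3, a ratio of 0.321 ± 0.00494. The primase genes were closer, with the catalytic Prim1 at 73.1 and 64.8 TPM and Prim2 at 50.2 and 42.7. Prim2 was 1.30-fold and Pola2 and Prim1 1.23-fold higher in replicate 1, and Pola1 was at 1.17-fold.

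Polymerases epsilon and delta extend the leading and the lagging strand. Pole, the catalytic subunit of epsilon, was at 17.9 TPM in replicate 1 and 16.3 in replicate 2, and its second subunit gene Pole2 at 23.2 and 19.4. Pold1, the catalytic subunit of delta, was at 60.1 and 63.8 TPM, and Pold2 at 74.6 and 64.6. Both catalytic genes had folds under 1.2 (Pole 1.1 and Pold1 1.05), while Pole2 was 1.32-fold and Pold2 1.26-fold higher in replicate 1. By TPM the catalytic genes Pola1 and Pole were thus among the lowest 3 of the 45 with Gins3.

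RPA coats the single-stranded DNA that the helicase exposes. By TPM its 3 subunit genes were Rpa3 at 161 TPM in replicate 1 and 128 in replicate 2, Rpa1 at 118 and 98.5 and Rpa2 at 110 and 95.5, while protein-coding transcripts held 159 and 127 TPM in Rpa3, 69.4 and 60.9 in Rpa1 and 104 and 89.3 in Rpa2. Fen1, the nuclease that trims the flap of each Okazaki fragment, was at 171 and 140 TPM, and Lig1, which seals the nick, at 151 and 122. The ratio of Lig1 to Fen1 was 0.887 and 0.872 by TPM, which depends on the length correction. A coding transcript of 944 nt held 47.9% and 53.8% of the TPM of Lig1. By reads per kilobase of the longest transcript, a scale described below, Lig1 was at 67.0 and 52.4 and Fen1 at 143 and 113. All 5 genes of this group were at least 1.2-fold higher in replicate 1, from 1.38-fold for Rpa3, 1.37-fold for Lig1 and 1.35-fold for Fen1 to 1.28-fold for Rpa1 and Rpa2. Lig3, a ligase of repair and mitochondria, was lower by TPM, and Lig1 stood at 20.8 times Lig3 in replicate 1 and 12.9 times in replicate 2.

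Rrm2 encodes the small subunit of ribonucleotide reductase, which is made in S phase and destroyed in mitosis. It lies at chromosome 12, 24708241 to 24714146, on the plus strand. Its level was 605 TPM in replicate 1 and 439 in replicate 2, above 98.6% of the detected protein-coding genes, and it was 1.52-fold higher in replicate 1 (interval 1.5 to 1.55, counting error only). Rrm1, the large subunit with which it pairs, was at 160 and 135 TPM, so that Rrm2 stood at 3.77 times Rrm1 in replicate 1 and 3.24 times in replicate 2. Rrm2b, the small subunit used outside S phase, was at 4.71 and 5.58 TPM. Rrm2 was thus 128 times Rrm2b in replicate 1 and 78.7 times in replicate 2.

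The other enzymes of this group act on thymidine and uridine nucleotides. Tk1, the cytosolic thymidine kinase, was at 240 TPM in replicate 1 and 215 in replicate 2, 19.5 ± 6.17 times its mitochondrial relative Tk2. Tyms, which makes dTMP from dUMP, was at 206 and 178 TPM, of which its protein-coding transcripts, described below, held 11.4 and 11.6, and Dut, which removes dUTP and yields dUMP, at 200 and 176. Rrm1 was 1.31-fold, Tk1 1.26-fold, and Tyms and Dut 1.25-fold higher in replicate 1, so Rrm2 was the member of this group that differed most between the pups.

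For some of these genes the level depends on which transcripts the reads were given to. In 41 of 45 the transcript with the highest TPM was annotated as protein-coding, and in 9 there was only 1 transcript. The exceptions were Tyms, Gins2 and Orc4, led by non-coding classes, and Rfc1, whose leading transcript is not in GENCODE M21. Transcripts of non-coding classes carried over 20% of TPM in 14 genes (31.1%), against 24.3% of the detected protein-coding genes. By estimated count they did so in 7. No share over all genes is given for that number or for the classes of leading transcripts. Short transcripts weigh more in TPM than in counts, because the same reads are divided by a smaller length.

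Tyms is the clearest case. A nonsense-mediated decay transcript of 797 nt, Tyms-205, held 43.2% and 44.5% of its TPM in replicates 1 and 2, and a retained-intron transcript of 816 nt, Tyms-202, held 34.5% ± 2.11 (SD, n = 2). Its protein-coding transcripts came to 11.4 and 11.6 TPM. In Gins2 a retained-intron transcript of 511 nt, Gins2-204, held 66.6% and 64.2% of TPM but 20.8% and 17.7% of the estimated count, and the coding transcripts came to 12.5 and 13.5 TPM. On the coding scale Gins2 was therefore near Gins3, whose 11.1 and 9.73 TPM are all coding. In Rfc1 a transcript of 485 nt held 50.6% and 48.5% of TPM and 11.3% and 10.9% of the count, while the 4751-nt transcript held 58.8% and 54.8% of the count.

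Further genes had a short transcript beside the full-length one. A retained-intron transcript held 37.0% and 36.0% of the TPM of Mcm3, 40.8% and 37.6% of that of Rpa1 and 33.9% and 35.7% of that of Tk1. In Pole the leading transcript by TPM was a coding one of 747 nt with 39.6% and 33.2%, while the 7163-nt transcript held 53.3% and 54.5% of the count but 18.0% and 20.3% of TPM. By contrast a coding transcript of 2193 nt held 95.9% and 95.5% of the TPM of Rrm2, and one of 1518 nt held 94.5% and 93.7% of that of Pcna. The leading transcript held over 90% in 19 genes, a count given without a share over all genes.

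**Figure D2:**
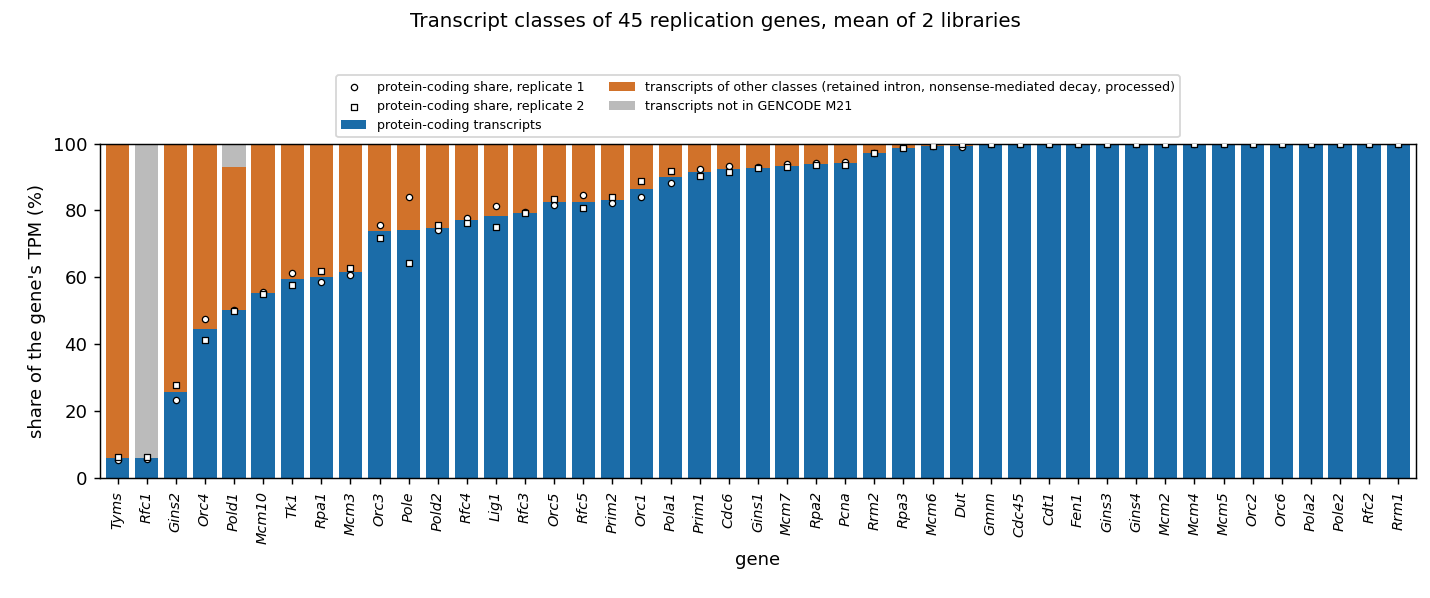
Share of each gene's TPM on protein-coding transcripts, on transcripts of other classes and on transcripts without a match in GENCODE M21, as bars of the mean of 2 libraries, with the coding share of each library as a circle (replicate 1) and a square (replicate 2). Tyms and Rfc1 lie lowest in coding share, followed by Gins2 and Orc4, and the libraries lie farthest apart in Pole.

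Levels were also set on a scale that ignores the split between transcripts, reads per kilobase of the gene's longest transcript, divided by library size. The order of the 45 genes was similar on it, with a Spearman correlation of 0.894 across genes, which share both libraries and are not independent replicates. Rrm2 (534 and 376 in replicates 1 and 2) and Pcna (353 and 272) stayed first and second. Next came Mcm7 at 150 and 130 and Rrm1 at 149 and 122. Tyms moved the farthest, by 18 ranks from 4 to 22, with 54.4 and 46.8. Rpa1 moved from rank 16 to 26, Rfc1 from 27 to 37 and Tk1 from 3 to 12. Pole, at 5.69 and 5.53, was lowest on this scale, below Gins3 at 10.1 and 8.62.

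**Figure D3:**
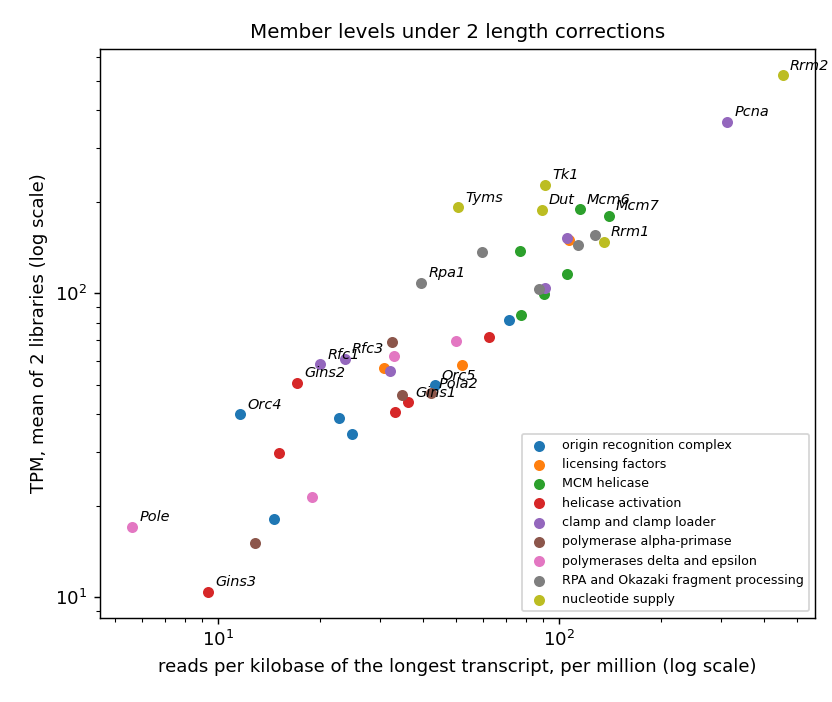
Mean TPM against mean reads per kilobase of the longest transcript, divided by library size, both on log axes, with 1 point per gene coloured by role. Rrm2 and Pcna lead on both axes. Tyms, Orc4, Pole, Gins2, Rfc1, Rpa1, Rfc3 and Tk1 are among the genes above the main band. These have more TPM than their reads per kilobase would give.

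Neighbouring genes can also share reads. Exons of 17 of the 45 genes overlap those of another gene in GENCODE M21, on the opposite strand for 14 of them, and the use of strand in counting was not given in the sources used here. In 7 genes the overlap exceeds 10% of the exon bases. No share over all genes is given for these counts, so they do not set the 45 genes apart. It covers 78.8% of the exon bases of Fen1 (with the antisense gene Gm10143, at 6.90 and 6.36 TPM in replicates 1 and 2), 67.3% of Gins2 (with Gse1, at 8.48 and 8.36) and 29.8% of Orc2 (with Nif3l1, at 16.2 and 15.6). Gins2 and Orc2 are nearer in level to these neighbours than Fen1 is. Fen1 also shares 5.37% of its exon bases with Tmem258 on the opposite strand, at 277 TPM in both libraries. The levels of Gins2, Orc2 and Fen1 are therefore uncertain. Orc6 shares 6.93% with Vps35, at 78.0 and 76.6 TPM. How far such overlaps change a level was not tested. Rfc2, Rfc4, Orc1 and Rfc5 overlap another gene by between 10.7% and 15.1%. Posterior SDs deposited by the authors were at most 0.691% of the count for any of the 45 genes in either library, but they do not cover reads from such neighbours.

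Genes that work beside the 45 were compared by lists. Of 12 further firing and checkpoint factors, 8 were at least 1.2-fold higher in replicate 1, with a median log2 ratio of 0.32. The 2 highest were Tipin, a fork protection factor, at 239 and 214 TPM and Clspn, the checkpoint adaptor claspin, at 67.2 and 50.2. Of 18 further polymerase and fork proteins 14 were, with a median of 0.32, and Top2a, the topoisomerase that unlinks DNA, at 222 and 197 TPM and Rnaseh2c, a subunit of the RNase that removes ribonucleotides from DNA, at 143 and 122 led the list. Of 16 mitosis genes 12 were, with a median of 0.29, led by Birc5, which encodes survivin, at 521 and 422 and the kinase gene Cdk1 at 371 and 331. No gene of these 3 lists was at least 1.2-fold higher in replicate 2. Over all genes tested the shares were 13.0% for replicate 1 and 20.1% for replicate 2.

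Of 16 other enzymes of nucleotide metabolism, which also serve RNA synthesis, 5 were at least 1.2-fold higher in replicate 1, against 13.0% of all genes. Higher at all were 11, against 48.9% of all genes, and the median log2 ratio was 0.13. The 2 highest were Dtymk, which phosphorylates dTMP, at 203 and 186 TPM, and Paics, of purine synthesis, at 164 and 153. Of 7 relatives that work in repair, mitochondria or resting cells, namely Mcm8, Mcm9, Rrm2b, Tk2, Lig3, Lig4 and Polg, none was 1.2-fold higher in replicate 1, 2 were 1.2-fold higher in replicate 2, where 20.1% of all genes were, and the median was -0.16. Of 13 E2F and pocket protein genes 6 were 1.2-fold higher in replicate 1, against 13.0% of all genes, with a median of 0.25. The list was led by E2f4 at 139 and 125 TPM and Tfdp2 at 119 and 111.

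Cell type markers also differed between the pups. All 12 erythroid markers, of the red cell lineage, were higher in replicate 1, 11 of them by at least 1.2-fold, and their summed level was 3455 and 3012 TPM in replicates 1 and 2, with none at 0. Pancreas markers were higher in replicate 1 in all 7 of 8 that could be tested, with sums of 988 and 376 TPM, and Pnlip was at 0.11 and 0 TPM. Higher in replicate 2 by at least 1.2-fold were 10 of 10 granulocyte markers (sums 13527 and 19408 TPM), 7 of 8 macrophage markers (643 and 951), 7 of 9 tested B lineage markers (159 and 228), 4 of 6 tested T lineage markers (22.4 and 29.8), 5 of 8 stromal markers (912 and 1268), 5 of 8 stem and progenitor markers (84.5 and 117) and 2 of 6 endothelial markers (264 and 327). Of 5 megakaryocyte markers, 1 was at least 1.2-fold higher in replicate 1 and none in replicate 2. Over all genes tested these shares were 20.1% for replicate 2 and 13.0% for replicate 1, and the endothelial and megakaryocyte counts are too small to set apart from them. The part of these cell types in the difference of the 45 genes was not tested.

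**Figure D4:**
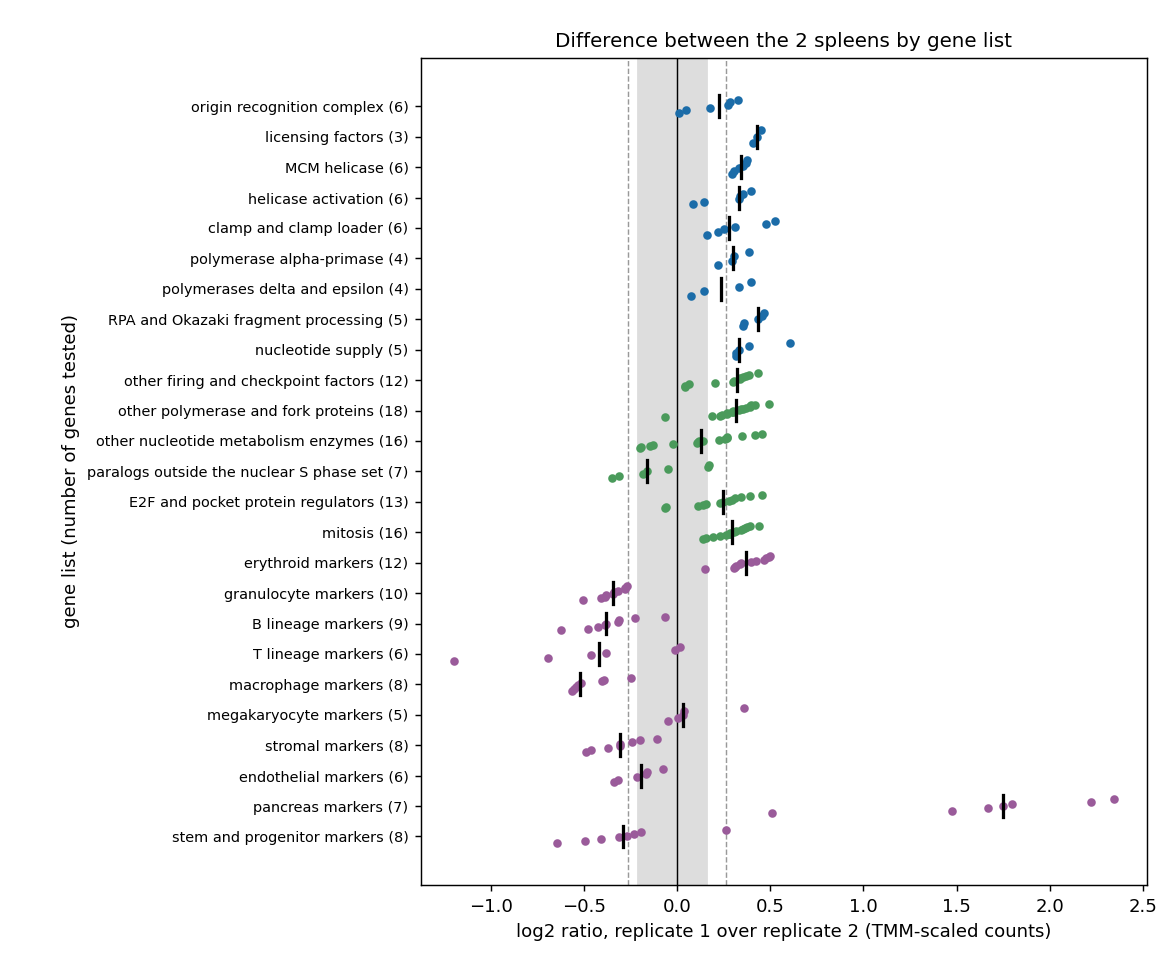
Log2 ratio of replicate 1 over replicate 2 from TMM-scaled counts, with 1 point per gene and a bar at each list's median, for the 9 groups of the 45 genes (blue), other fixed lists (green) and cell type markers (purple). Grey shading spans the middle 50 percent of all genes tested and dashed lines mark 1.2-fold. All 45 genes lie right of 0, as do the erythroid and pancreas markers, and granulocyte, macrophage and B lineage markers lie left of it.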

How the data were processed

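Both libraries came from total RNA extracted with mirVana (RNA over 200 nt, 10 ng of input) and spike-ins, per the labels, which also list a SMARTer low-input cDNA kit manual. The authors deposited, per gene and per transcript on mm10, expected counts (estimated counts, which divide shared reads), TPM, posterior means and SDs (used as scores of precision) and TPM interval bounds. The aligner was not given in the sources used here, nor were versions. The 45 genes, the lists and the thresholds were chosen with earlier results of these data known.

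TMM scaling in edgeR 4.0.16 (R 4.3.3) was applied to the rounded counts of genes that averaged 20 counts or more, and log2 ratios used a prior count of 2. Spike-ins were left out of library sizes. No p-value was computed, since 1 group of 2 pups holds no contrast. The scaling step was tested on simulated counts with known changes. GENCODE M21 gave names, classes and coordinates, and RefSeq gave promoters. All 45 genes are named, with levels in both libraries and folds, and of each other list the 2 highest members by level; Tlx1, Nkx2-5, Pnlip and overlapping neighbours were named after their values were seen. The alternatives were DESeq2 1.42.0 size factors, library size, spike-in totals, TPM ratios, other filters, prior counts and folds, posterior means, rescaled TPM, shorter words and each library alone. A planned comparison of protein sequences was not made. All other steps ran in Python 3.11.15 (pandas 2.3.3, numpy 2.4.6, matplotlib 3.10.9, scipy 1.17.1).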

Additional observations from a re-analysis of the deposited data

How the results depend on the processing

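No paired analysis was possible because there is 1 group. The number of the 45 genes at least 1.2-fold higher in replicate 1, 34 by TMM, was 15 by library size alone (7.03% of all genes). It was 10 by the ratio of TPM (6.53%), 1 at a threshold of 1.5-fold (2.54%) and 0 at 2-fold. DESeq2 size factors, no filter and a mean count of at least 100 each gave 34. A prior count of 0.5 and posterior mean counts also gave 34. The number was 37 by spike-in totals (18.3% of all genes) and 41 at 1.1-fold. No share over all genes is given for 1.1-fold and 2-fold, so those counts have no background to be read against. Under each of these settings 0 were called higher in replicate 2. At 1.2-fold, 29.5% of all genes were higher in replicate 2 by library size, 34.5% by TPM and 16.0% by spike-in totals. The median log2 ratio, 0.33, was 0.23 by library size, 0.38 by spike-in totals, which rest on only 694 and 748 spike-in counts, and 0.19 by TPM. Its distance from the median of all genes was between 0.33 and 0.34 under each scaling. Scaling by 1 factor per library shifts both medians about alike, so there that distance is nearly fixed by construction. The share of TPM held by the 45 genes, 0.465%, was 0.531% over protein-coding genes, 0.636% without adult globins and 0.805% by estimated counts. Their median level of 69.7 TPM became 79.5, 95.3, 58.2 for protein-coding transcripts only and 49.9 reads per kilobase of the longest transcript. The last 2 settings were added after seeing the data, as were the choice of the leading transcript by count, the order by reads per kilobase and the promoters of expressed genes. With each library alone the share ran from 0.426% to 0.504%, the median from 64.8 to 74.6 TPM and the MCM range from 2.20 to 2.26-fold, and 45 genes were detected and 41 led by a coding transcript in either. With E2F words shortened by 1 base at the 5′ end, 62.2% of the 37 genes held one, against 10.9% of the table and 19.4% of the expressed genes.

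Of the other recomputed values, for single genes, groups and ratios, 226 moved by more than 1 SD or the counting interval and 501 did not. With n = 2, leaving out either library moves a mean by less than 1 SD by construction. Those settings are among the 501 and say nothing of stability. Depth limits little here, as the least counted gene had 669 counts, but 2 pups measure the spread between animals poorly.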
